A study of Mus musculus with 18 samples.

Results

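The genes described here are 8 components of the angiotensin, endothelin and natriuretic peptide systems, taken by symbol after each Ensembl identifier had been matched to an annotation. They are angiotensinogen (Agt), the angiotensin-converting enzyme Ace, the angiotensin II receptor gene Agtr1a, the endothelin receptors Ednra and Ednrb, and the natriuretic peptide receptors Npr1, Npr2 and Npr3. All 8 of the 8 were found, out of 53342 gene identifiers measured, and all 8 passed the filter on low counts that left 15762 genes for testing. They were followed in mRNA libraries of Thy1+ HE cells, a population sorted from mouse hearts by Thy1, a surface protein carried by cardiac fibroblasts. Elsewhere the labels have Thy1+HE-, and HE is not explained. KK/HlJ, C3H/HeJ and C57BL/6 mice carried implanted pumps delivering isoproterenol (ISO), which activates beta-adrenergic receptors, for 14 or 21 days, and saline-treated (sham) hearts of each strain served as controls. The 9 groups of strain and condition were thus ISO day 14, ISO day 21 and sham in each strain, with 2 libraries each and 18 in all. The sham libraries carry no day, so the same pair was set against both days and the day 14 and day 21 comparisons share their controls. The labels name no transgene, age or sex, and do not say whether the 2 libraries of a group came from separate animals or from pools. P-values therefore rest on the spread within these pairs, and that spread may be technical.

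On mm10 the genes lie at chr8:124556534-124569706 (Agt), chr11:105967945-105989964 (Ace), chr13:30336441-30382867 (Agtr1a), chr8:77663031-77724464 (Ednra), chr14:103814625-103844402 (Ednrb), chr3:90450591-90465866 (Npr1), chr4:43631935-43651244 (Npr2) and chr15:11839896-11907287 (Npr3). All 8 are protein coding. An exon of a gene on the opposite strand overlaps 559 exon bases of Npr1, 321 of Npr3, 295 of Ace, 266 of Npr2 and 91 of Ednra. Because the strand setting of the counting is not given in the sources used here, reads of those stretches cannot be told apart from reads of the partner gene.

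In the angiotensin system, renin cuts angiotensinogen and ACE converts the product to angiotensin II, which acts on vessels, heart muscle and fibroblasts through the type 1 receptor. Endothelin 1 constricts vessels through the ETA receptor on smooth muscle, whereas the ETB receptor also clears the peptide and acts on endothelium. Atrial and B-type natriuretic peptides, released by heart muscle cells, raise cGMP through NPR1, C-type natriuretic peptide does so through NPR2, and NPR3 binds all of them and removes them from the circulation. In cardiac fibroblasts, angiotensin II and endothelin are known to promote matrix production and cGMP to restrain it.

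Total counts per library ran between 7230741 and 26280685. The sorted cells carried fibroblast genes at high level in each library: 11 fibroblast markers summed to 78858.6 to 140653.2 CPM (reads scaled to a common library size), and Dcn, Tcf21, Thy1 and Pdgfra averaged 1959.1, 150.7, 110.9 and 57.8 CPM per kb of exon. Markers of other cells were present at lower summed levels, but not every single gene was lower. Per kb of exon, Rgs5 and Notch3 of the pericyte list averaged 150.7 and 30.3 CPM, so that Rgs5 equalled Tcf21. The mesothelial marker Upk3b averaged 36.6 CPM per kb, and the endothelial Pecam1 and Cdh5 5.4 and 5.47. The 13 pericyte and smooth muscle markers summed to 1277.7 to 6446.6 CPM and the 14 endothelial markers to 202.0 to 1281.5 CPM. Mesothelial, cardiomyocyte, Schwann cell and macrophage lists reached at most 534.6, 410.4, 158.6 and 218.1 CPM, and of the macrophage markers Adgre1, Ptprc, Fcgr1 and Mrc1 had no count in at least 9 libraries. Between the 2 libraries of a group, the correlation of log2 CPM across genes was 0.832 to 0.941. Replicate 1 of KK/HlJ ISO day 14, of C3H/HeJ sham, of KK/HlJ sham and of KK/HlJ ISO day 21 had the lowest median correlations with the others, at 0.811, 0.84, 0.845 and 0.847.

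Ace and Npr1 had the most GC-rich start regions among the members, and the bases before their starts are shown because Ace was by far the most abundant of the 8 genes and Npr1 one of the next 2. The sequences are from RefSeq on GRCm38.p6, which is the mm10 build. RefSeq promoter windows, 250 bases before to 50 bases after a start, were found for 7 of the 8 genes, with 8 windows in all since Ace had a pair of starts. The run for Ace is chr11:105967698-105967947 on the plus strand and that for Npr1 is chr3:90465867-90466116 on the minus strand. Each is written 5′ to 3′ and ends at the base before the start, with capitals marking the GC box letters GGGCGG or their reverse complement CCGCCC.
Ace: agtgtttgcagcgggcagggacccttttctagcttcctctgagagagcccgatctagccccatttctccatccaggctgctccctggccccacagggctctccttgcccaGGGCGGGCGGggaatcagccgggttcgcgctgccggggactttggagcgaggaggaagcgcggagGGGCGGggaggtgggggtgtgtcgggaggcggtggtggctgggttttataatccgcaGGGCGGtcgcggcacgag
Npr1: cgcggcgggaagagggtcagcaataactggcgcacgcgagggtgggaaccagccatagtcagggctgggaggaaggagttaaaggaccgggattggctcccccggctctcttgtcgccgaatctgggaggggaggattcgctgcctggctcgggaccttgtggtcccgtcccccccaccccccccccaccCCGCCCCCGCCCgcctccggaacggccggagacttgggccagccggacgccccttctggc
The Ace run holds 4 copies of the GC box, of which 2 overlap, and the Npr1 run holds 2 copies, both as the reverse complement. Over the full windows, G and C made up 69.7% of bases at the first Ace start and 69.7% at Npr1, against a median of 52.7% over all 32817 RefSeq mouse promoter windows. The window of the second Ace start, not printed, had 59.0% and no GC box. The GC box letters occurred on either strand in 2 of the 8 member windows and in 35.6% of all windows. With both strands searched, the TATA box letters TATAAA were found in the Agt window and, as the reverse complement TTTATA, in the first Ace window, and in 13.6% of all windows, and the cAMP response element TGACGTCA in 0 of the 8 member windows and in 1.79% of all. A letter match is a description of the sequence and not a binding site.

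The 8 genes differed widely in level. On the per-length scale, mean CPM per kb of exon over the 18 libraries was 239.0 for Ace, 27.0 for Npr2, 24.8 for Npr1, 6.28 for Ednra, 3.92 for Agtr1a, 3.21 for Ednrb, 0.925 for Npr3 and 0.197 for Agt. Ace, which makes angiotensin II, thus stood above 98.9% of the genes tested, and Agt, which encodes the precursor, above 13.1%. Npr2 and Npr1, both guanylyl cyclase receptors, stood above 88.6% and 87.7% of tested genes, and the clearance receptor Npr3 above 31.8%. Neighbours in this order did not all separate. Npr2 exceeded Npr1 per kb in 13 of 18 libraries, with a median ratio of 1.19 and a range of 0.413 to 2.31. The ranges of Agtr1a, 0 to 14.0 CPM per kb, and Ednrb, 0.0204 to 6.18 CPM per kb, overlapped, and Agtr1a reached higher.

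**Figure D1:**
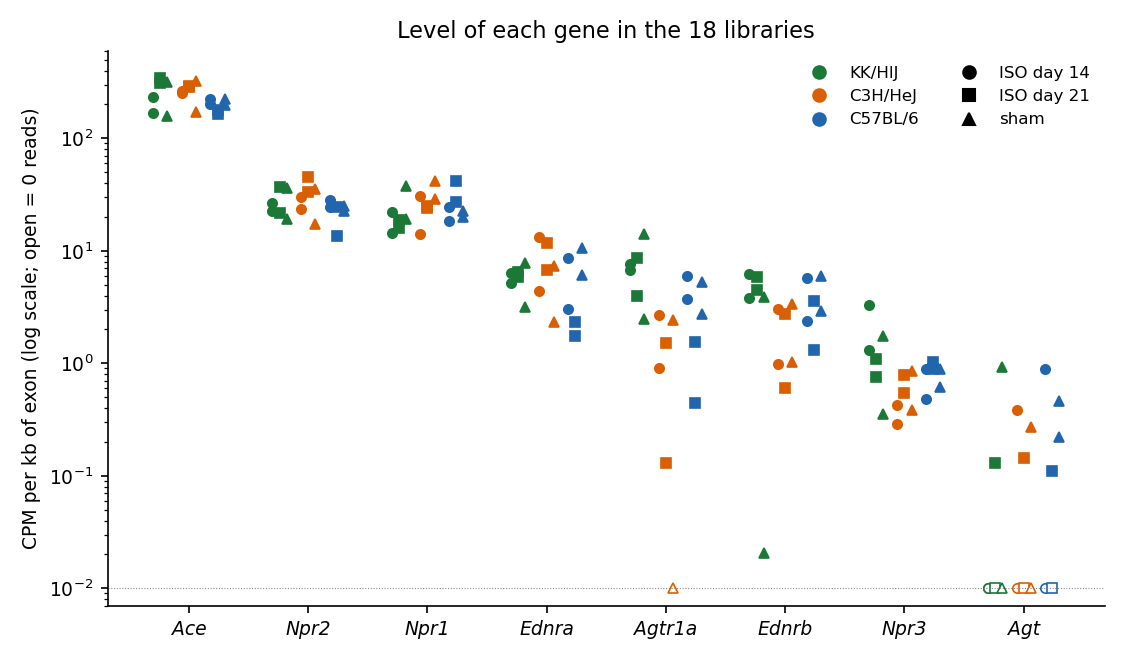
Level of each of the 8 genes in every library, in CPM per kb of exon on a log axis, coloured by strain, with circles for ISO day 14, squares for ISO day 21 and triangles for sham, and libraries without a read drawn open on the dotted line. Ace lies between 158.7 and 342.7 CPM per kb in all 18 libraries, whereas Agt lies on the dotted line in 9.

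None of the 8 genes passed the test in any of the 17 comparisons made, so that 0 of 136 gene comparisons were called at an adjusted p under 0.05 with edgeR's quasi-likelihood test, and 4 had an unadjusted p under 0.05. The lowest adjusted p was 0.466. Over all genes, the share with an unadjusted p under 0.05 lay between 1.1% and 8.29% by comparison. Calls were rare among all genes as well. ISO against sham averaged over the 3 strains called 0.0381% of the 15762 genes at day 14 and 0.0444% at day 21, and day 21 against day 14 called 0%. Within strains, the share of genes called at day 14 and at day 21 was 0% and 0.019% in KK/HlJ, 0.0127% and 0% in C3H/HeJ, and 0% and 0% in C57BL/6. A count of 0 members is therefore near the background, and the intervals below give the range of changes that the libraries allow.

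Agt, the only source of angiotensin peptides, was at or near the floor in most libraries. It had 0 counts in 9 of 18 libraries and 3 counts or fewer in 12. KK/HlJ libraries of replicates 1 and 2 held 0 and 0 counts at ISO day 14, 0 and 2 at ISO day 21, and 20 and 0 in sham. In C3H/HeJ the counts were 18 and 0 at ISO day 14, 3 and 0 at ISO day 21, and 0 and 9 in sham. C57BL/6 had 27 and 0 counts at ISO day 14, 0 and 3 at ISO day 21, and 23 and 11 in sham. Libraries with and without reads occurred within the same group in 7 of the 9 groups, and no fold change is given for this gene. The floor of 3 counts in the libraries at 0 equals 0.124 to 0.39 CPM, covering counting error only.

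Ace, the peptidase that forms angiotensin II and degrades bradykinin, was abundant in every group and showed no ISO change beyond the spread. KK/HlJ libraries had 895.6 and 1228.0 CPM at ISO day 14, 1812.0 and 1627.1 CPM at ISO day 21, and 838.8 and 1684.1 CPM in sham. C3H/HeJ libraries had 1336.2 and 1381.8 CPM at ISO day 14, 1503.5 and 1552.5 CPM at ISO day 21, and 900.7 and 1720.0 CPM in sham. In C57BL/6 the levels were 1173.7 and 1056.3 CPM at ISO day 14, 874.4 and 937.5 CPM at ISO day 21, and 1174.3 and 1052.2 CPM in sham. Only in C57BL/6 at day 21 did both ISO libraries fall outside the sham pair, on the low side. In KK/HlJ and C3H/HeJ, the range of the sham pair held all ISO libraries but 1, the KK/HlJ day 21 library at 1812.0 CPM. Averaged over strains, the log2 fold change of ISO over sham was -0.06 at day 14 (SE 0.196, 95% interval -0.47 to 0.34) and 0.12 at day 21 (SE 0.196, 95% interval -0.28 to 0.53).

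Between strains, Ace averaged 1347.6 ± 420.6 CPM in KK/HlJ, 1399.1 ± 279.3 CPM in C3H/HeJ and 1044.7 ± 121.7 CPM in C57BL/6 (SD, n = 6 libraries each). C3H/HeJ exceeded C57BL/6 by 0.42 on the log2 scale over the 3 conditions (SE 0.197, 95% interval 0.02 to 0.83), a fold of 1.34, which did not pass after adjustment in edgeR's test (unadjusted p = 0.0417, adjusted p = 0.577). This comparison called 0.647% of all genes. In sham alone the difference was 0.24 (95% interval -0.47 to 0.94). Capillary endothelium also makes Ace, and the 14 endothelial markers, in replicate order, summed to 235.2 and 261.1 CPM at ISO day 14, 1281.5 and 444.6 CPM at ISO day 21 and 215.3 and 405.9 CPM in sham of C3H/HeJ. In C57BL/6 they summed to 328.1 and 459.6 CPM at ISO day 14, 332.1 and 314.3 CPM at ISO day 21 and 421.3 and 578.1 CPM in sham. The part of endothelial cells in the Ace values was not tested.

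Agtr1a, which encodes the main type 1 angiotensin II receptor of mouse, averaged 20.1 ± 11.2 CPM in KK/HlJ, 3.55 ± 3.16 CPM in C3H/HeJ and 9.13 ± 5.89 CPM in C57BL/6 (SD, n = 6 libraries each). KK/HlJ libraries held 18.84 and 21.07 CPM at ISO day 14, 11.11 and 23.87 CPM at ISO day 21, and 6.877 and 38.98 CPM in sham. C3H/HeJ libraries held 2.523 and 7.48 CPM at ISO day 14, 0.3645 and 4.216 CPM at ISO day 21, and 0 and 6.739 CPM in sham. In each of the 3 conditions both KK/HlJ libraries lay above both C3H/HeJ libraries, though the nearest sham values were almost equal, at 6.877 and 6.739 CPM. The share of all genes that separate in this way was not counted. C57BL/6 libraries had 10.48 and 16.51 CPM at ISO day 14, 1.235 and 4.295 CPM at ISO day 21, and 14.56 and 7.681 CPM in sham. Averaged over conditions, KK/HlJ exceeded C3H/HeJ by 2.55 on the log2 scale (SE 0.856, 95% interval 0.77 to 4.34), a fitted fold of 5.88. With edgeR's test this had an unadjusted p of 0.00724 and an adjusted p of 0.466, and 0.406% of all genes were called in that comparison. It was called under 3 of 26 alternative settings, namely with DESeq2 (adjusted p = 0.0484), with no filter on low counts (edgeR adjusted p = 0.0334), and without replicate 2 of C3H/HeJ sham (edgeR adjusted p = 0.0154). The last of these leaves only the C3H/HeJ sham library with no Agtr1a read, and the fitted log2 difference was 5.47 there.

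The sham libraries alone gave a KK/HlJ over C3H/HeJ difference of 2.76 for Agtr1a (95% interval -0.36 to 5.87, unadjusted p = 0.0796 and adjusted p = 0.734 by edgeR's test), in a comparison that called 0.152% of genes. Against C57BL/6, KK/HlJ differed by 1.42 over conditions (95% interval -0.30 to 3.14, 0.273% of genes called) and C3H/HeJ by -1.14 (95% interval -2.85 to 0.58). In sham the same differences were 1.04 (95% interval -1.89 to 3.98) for KK/HlJ and -1.71 (95% interval -4.71 to 1.29) for C3H/HeJ, where 0.0508% and 0.102% of genes were called. Reads of all strains were aligned to mm10, which derives from C57BL/6, and the part of strain variants in these differences was not tested. Agtr1b, a close copy of Agtr1a, had 0 counts in 16 of 18 libraries, and how reads matching both copies were counted is not given in the sources used here.

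ISO did not move Agtr1a beyond its spread. The mean log2 fold change over strains was 0.21 at day 14 (SE 0.808, 95% interval -1.47 to 1.89) and -0.98 at day 21 (SE 0.818, 95% interval -2.68 to 0.73). Both C57BL/6 libraries at ISO day 21 lay below both sham libraries of that strain, with a log2 fold change of -2.0 (95% interval -5.04 to 1.03).

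**Figure D2:**
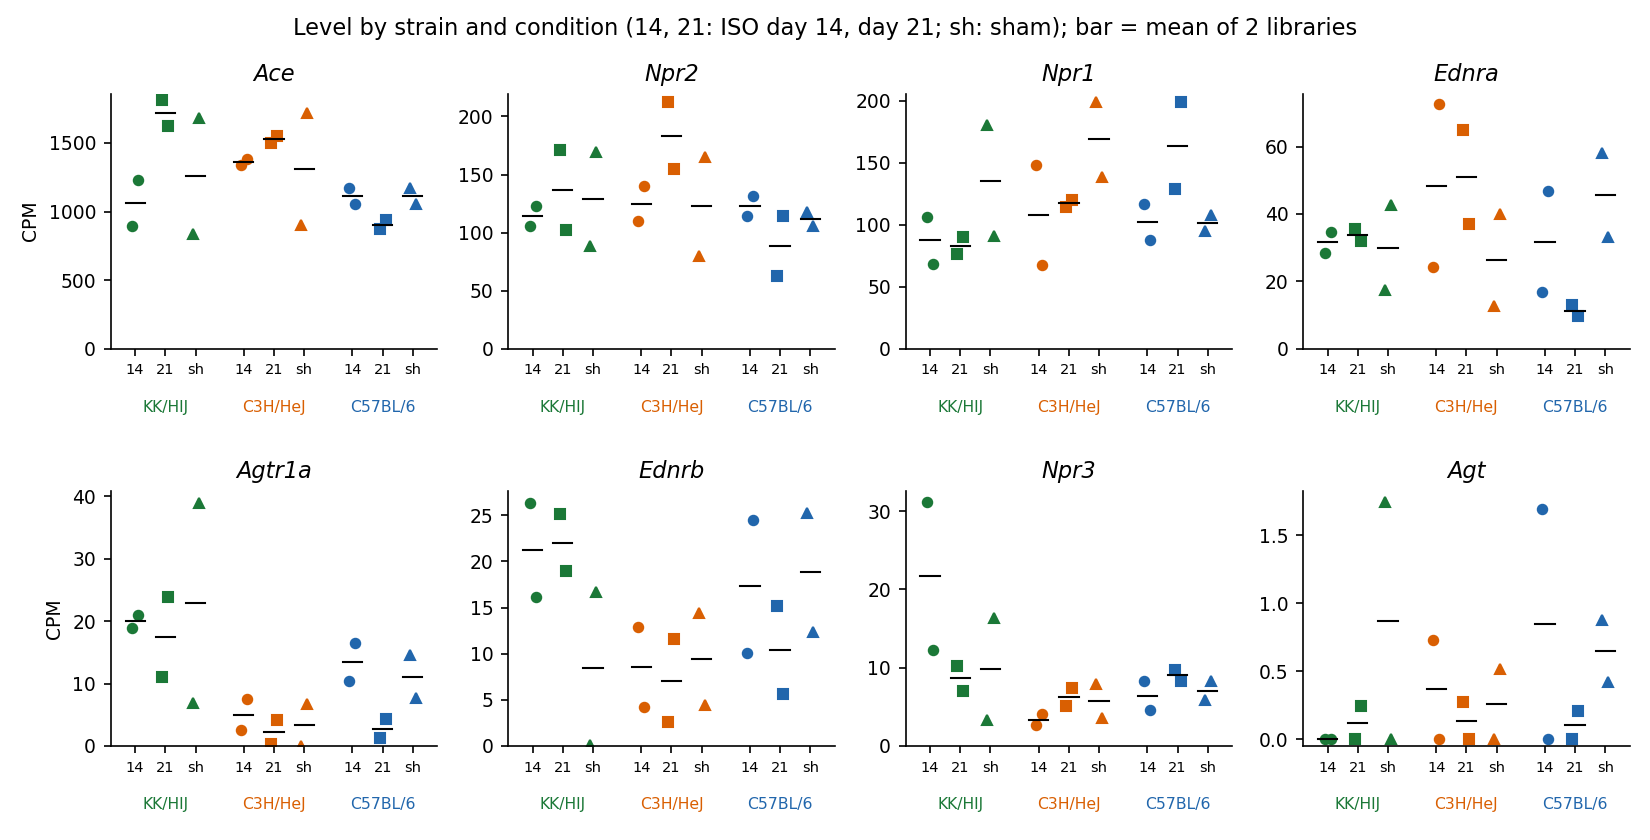
Level of each gene by strain and condition, in CPM on a linear axis, with 1 point per library and a bar at the mean of the 2 libraries of a group. KK/HlJ libraries lie above those of C3H/HeJ for Agtr1a in each condition, in sham only by 6.877 against 6.739 CPM at the nearest. In the panel of Ednra the 2 C57BL/6 libraries at ISO day 21, at 12.87 and 9.628 CPM, lie below the other 4 of that strain.

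Ednra, the ETA receptor, had the lowest unadjusted p of the ISO comparisons. In C57BL/6 its level was 16.76 and 46.89 CPM at ISO day 14, 12.87 and 9.628 CPM at ISO day 21, and 58.04 and 33.17 CPM in sham. Both day 21 libraries therefore lay below both sham libraries, and below each other C57BL/6 library. The log2 fold change of ISO over sham at day 21 was -2.02 (SE 0.665, 95% interval -3.40 to -0.64), which edgeR's test did not call (unadjusted p = 0.00604, adjusted p = 1.0). C3H/HeJ libraries had 24.22 and 72.59 CPM at ISO day 14, 64.79 and 37.06 CPM at ISO day 21, and 12.73 and 39.86 CPM in sham. The C3H/HeJ pairs overlapped, and the log2 fold change there was 0.88 at day 14 (95% interval -0.46 to 2.21) and 0.95 at day 21 (95% interval -0.38 to 2.29). KK/HlJ libraries had 28.45 and 34.72 CPM at ISO day 14, 35.62 and 31.9 CPM at ISO day 21, and 17.32 and 42.77 CPM in sham, with both ISO pairs inside the sham pair.

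The difference between strains in the Ednra response was tested directly. At day 21 the response was higher by 2.97 in C3H/HeJ and by 2.19 in KK/HlJ than in C57BL/6 on the log2 scale, and the joint test of the strain differences by edgeR gave an unadjusted p of 0.0113 and an adjusted p of 0.913. No gene at all was called by the main edgeR fit in this comparison (0%, with 755 genes at an unadjusted p under 0.05 and 4 called by DESeq2), nor in that of day 14 (0%, with 271 and 3). The number moved between edgeR settings, and with no filter on low counts it was 44 at day 21 and 26 at day 14. Leaving out each library in turn moved it further at both days. Pericyte and smooth muscle cells carry Ednra, and their markers moved with it in C57BL/6. The 13 markers summed to 1679.1 and 5148.5 CPM at ISO day 14, 2748.6 and 1277.7 CPM at ISO day 21, and 6446.6 and 3736.8 CPM in sham, in replicate order, and none of the 13 was at 0 in any of these libraries. At day 21, 13 of 13 had a negative log2 fold change in C57BL/6, with a median of -1.53 and 0 called. The median over all genes in that comparison was 0.0, and the share of all genes with a negative change was not counted. At day 14, 10 of 13 were negative in C57BL/6, with a median of -0.63. The library with the higher marker sum was also the one with more Ednra in 3 of the 3 C57BL/6 groups, 2 of the 3 C3H/HeJ groups and 1 of the 3 KK/HlJ groups. In C3H/HeJ the marker sums were 1723.5 and 1986.8 CPM at ISO day 14 and 1532.6 and 1819.2 CPM at ISO day 21. In sham they were 2128.1 and 3333.9 CPM. At each day 9 of 13 markers were negative and 0 called, beside a positive fitted change of Ednra. Their median log2 fold change was -0.43 at day 14 and -0.79 at day 21. KK/HlJ libraries had sums of 2898.6 and 2041.3 CPM at ISO day 14 and 2256.2 and 2610.3 CPM at ISO day 21. Their sham sums were 2006.9 and 2697.3 CPM. Negative markers numbered 7 of 13 at day 14 and 6 of 13 at day 21 in KK/HlJ, with 0 called. The part of these cells in the Ednra values was not tested, and in such bulk libraries fewer cells of a type cannot be told apart from less RNA per cell. Over strains, the mean Ednra change was 0.14 at day 14 (95% interval -0.62 to 0.91) and -0.30 at day 21 (95% interval -1.07 to 0.47).

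Ednrb, the ETB receptor, differed between the 2 libraries of a group by a median of 1.42 on the log2 scale, against 0.16 for Ace. KK/HlJ libraries had 26.37 and 16.1 CPM at ISO day 14, 25.11 and 19.0 CPM at ISO day 21, and 0.08706 and 16.72 CPM in sham, where the lowest value was 1 read. In C3H/HeJ the levels were 12.86 and 4.219 CPM at ISO day 14, 2.551 and 11.58 CPM at ISO day 21, and 14.46 and 4.397 CPM in sham. C57BL/6 libraries had 10.1 and 24.54 CPM at ISO day 14, 15.17 and 5.611 CPM at ISO day 21, and 25.26 and 12.38 CPM in sham. Within KK/HlJ, 3 of the 4 ISO libraries lay above both sham libraries. The log2 fold change there was 1.34 at day 14 (95% interval -1.32 to 3.99) and 1.39 at day 21 (95% interval -1.27 to 4.05, adjusted p = 0.83 by edgeR). Leaving out replicate 2 of KK/HlJ sham, which leaves the library with 1 read, gave 7.87 at day 21. That was the only one of 26 settings to call it, and its KK/HlJ sham level rests on that 1 library. Leaving out replicate 1 of KK/HlJ sham instead gave 0.40, and without the 4 least correlated libraries the value was 0.18.

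Averaged over strains, ISO changed Ednrb by 0.36 at day 14 (95% interval -1.15 to 1.87) and by 0.04 at day 21 (95% interval -1.47 to 1.55) on the log2 scale, both within the spread. Ednra exceeded Ednrb per kb in 15 of 18 libraries, with a median ratio of 1.58. The exceptions were replicate 1 of KK/HlJ ISO day 14, of C3H/HeJ sham and of C57BL/6 ISO day 21.

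The 7 genes other than Agt differed in how far apart the libraries of a group lay. Measured as the log2 difference of replicate 1 over replicate 2 with a prior count of 2, its median size was 0.16 for Ace, 0.46 for Npr2, 0.53 for Npr1, 0.59 for Npr3, 0.81 for Ednra, 1.42 for Ednrb and 1.56 for Agtr1a. The largest gaps were 6.02 for Ednrb, in the KK/HlJ sham pair, and 5.45 for Agtr1a, in the C3H/HeJ sham pair. Replicate 1 of these pairs held 1 and 0 counts, below the floor of 3, so the size of both gaps depends on the prior count.

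**Figure D3:**
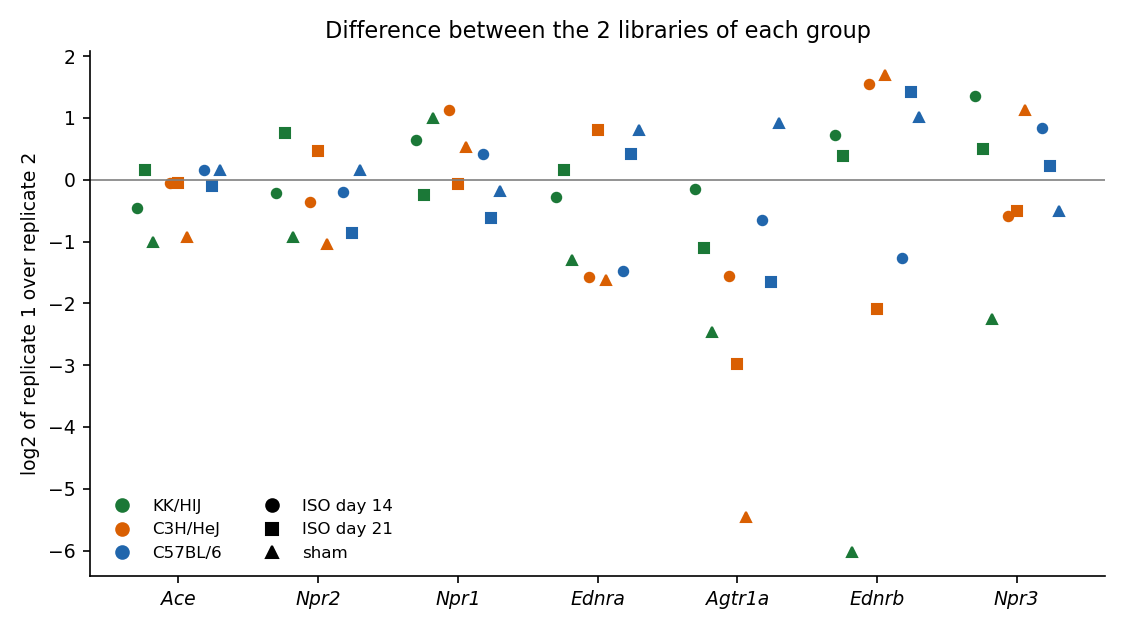
Log2 difference of replicate 1 over replicate 2 in each of the 9 groups for the 7 genes other than Agt, coloured by strain, with circles for ISO day 14, squares for ISO day 21 and triangles for sham. The points of Ace lie within 1.01 of 0, whereas those of Agtr1a and Ednrb reach -5.45 and -6.02, in pairs where replicate 1 held 0 and 1 counts.

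**Figure D4:**
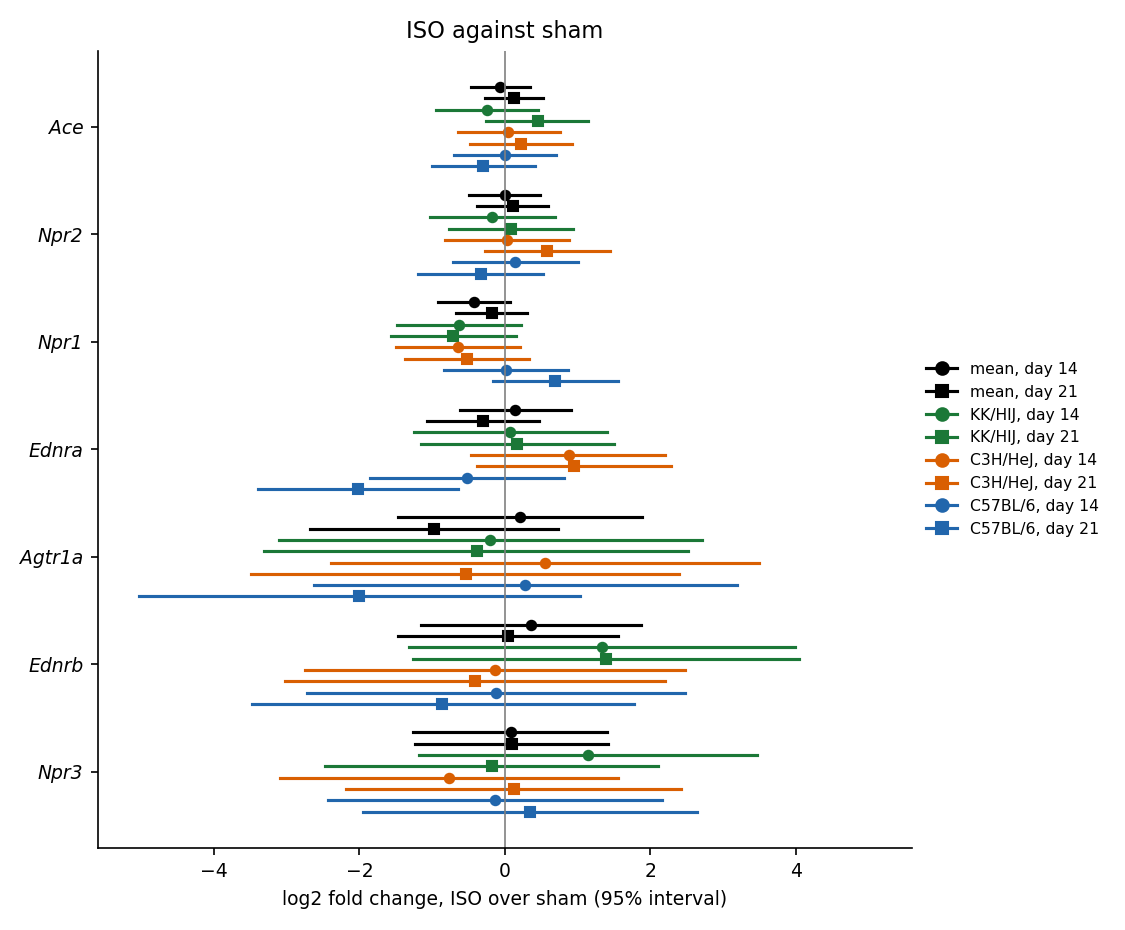
Log2 fold change of ISO over sham from edgeR for 7 genes, with 95% intervals, as the mean over strains (black) and in each strain, with circles for day 14 and squares for day 21. Agt is left out because it was near the floor. The interval of Ednra at day 21 in C57BL/6, -3.40 to -0.64, is the only one drawn that leaves out 0.

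Npr1, the guanylyl cyclase receptor for atrial and B-type natriuretic peptides, had a lower mean after ISO than in sham in KK/HlJ and C3H/HeJ at both days, and none of these differences passed the test. KK/HlJ libraries had 106.4 and 68.54 CPM at ISO day 14, 76.18 and 90.11 CPM at ISO day 21, and 180.6 and 90.71 CPM in sham. Both day 21 libraries lay below the sham pair there, the nearest values being 90.11 and 90.71 CPM. C3H/HeJ libraries had 148.1 and 67.6 CPM at ISO day 14, 114.7 and 120.2 CPM at ISO day 21, and 199.2 and 138.4 CPM in sham, again with both day 21 libraries below both sham libraries. In C57BL/6 the levels were 116.7 and 88.06 CPM at ISO day 14, 129.1 and 198.6 CPM at ISO day 21, and 94.83 and 108.0 CPM in sham, and here both day 21 libraries lay above the sham pair. The day 14 log2 fold changes were -0.63 in KK/HlJ (95% interval -1.49 to 0.22), -0.65 in C3H/HeJ (95% interval -1.50 to 0.21) and 0.01 in C57BL/6 (95% interval -0.84 to 0.87). Those of day 21 were -0.71 in KK/HlJ (95% interval -1.57 to 0.15), -0.52 in C3H/HeJ (95% interval -1.38 to 0.33) and 0.69 in C57BL/6 (95% interval -0.16 to 1.55). The joint test of the strain differences in that response gave an unadjusted p of 0.0528 and an adjusted p of 0.913 with edgeR. Over strains, the change was -0.42 at day 14 (SE 0.238, 95% interval -0.92 to 0.07, edgeR adjusted p = 0.909) and -0.18 at day 21 (95% interval -0.67 to 0.31).

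Npr2, the guanylyl cyclase receptor for C-type natriuretic peptide, overlapped between ISO and sham libraries in each strain and at each day. Its level in KK/HlJ was 106.1 and 123.1 CPM at ISO day 14, 171.3 and 102.0 CPM at ISO day 21, and 88.88 and 169.4 CPM in sham. C3H/HeJ libraries had 109.6 and 140.5 CPM at ISO day 14, 212.3 and 154.7 CPM at ISO day 21, and 80.32 and 165.2 CPM in sham. In C57BL/6 the level was 114.7 and 131.5 CPM at ISO day 14, 62.78 and 114.5 CPM at ISO day 21, and 117.4 and 106.0 CPM in sham. The highest of these, 212.3 CPM, and the lowest, 62.78 CPM, were both ISO day 21 libraries, of C3H/HeJ and of C57BL/6. The mean log2 fold change over strains was -0.00 at day 14 (95% interval -0.50 to 0.49) and 0.11 at day 21 (95% interval -0.39 to 0.60), so that the intervals leave room for changes of up to 0.60 on that scale.

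Npr3, the clearance receptor, was the least abundant of the 3 natriuretic peptide receptors in all libraries. KK/HlJ libraries had 31.18 and 12.29 CPM at ISO day 14, 10.21 and 7.063 CPM at ISO day 21, and 3.308 and 16.35 CPM in sham. The 31.18 CPM of replicate 1 at day 14 was the highest of the 18. C3H/HeJ libraries had 2.727 and 4.027 CPM at ISO day 14, 5.103 and 7.459 CPM at ISO day 21, and 7.938 and 3.598 CPM in sham. C57BL/6 libraries had 8.284 and 4.56 CPM at ISO day 14, 9.7 and 8.312 CPM at ISO day 21, and 5.808 and 8.331 CPM in sham. The mean log2 fold change of ISO over sham was 0.08 at day 14 (95% interval -1.26 to 1.41) and 0.10 at day 21 (95% interval -1.23 to 1.42). Between strains over all conditions, KK/HlJ exceeded C3H/HeJ by 1.30 (SE 0.651, 95% interval -0.05 to 2.65), with an unadjusted p of 0.0575 and an adjusted p of 0.812 by edgeR.

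As shares of the summed natriuretic receptor signal per kb, Npr3 made up a median of 1.39% (range 0.531% to 6.87%), Npr2 53.7% (28.8% to 68.3%) and Npr1 45.1% (29.6% to 69.8%) over 18 libraries. The order of the cyclase receptors varied between libraries. Npr1 stood above Npr2 per kb in both C57BL/6 libraries at ISO day 21, and in replicate 1 of KK/HlJ sham, of C3H/HeJ ISO day 14 and of C3H/HeJ sham.

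**Figure D5:**
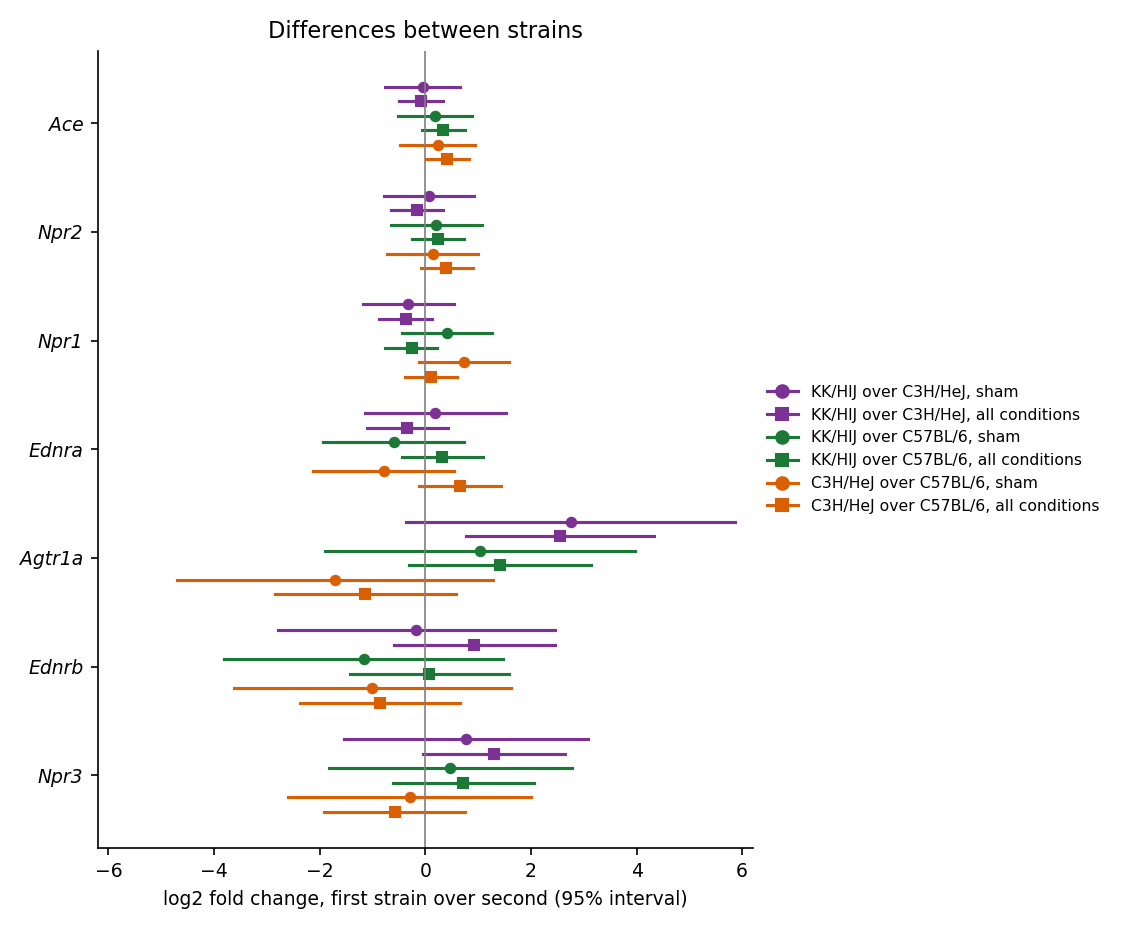
Log2 fold change between strains from edgeR for 7 genes, with 95% intervals, in sham (circles) and over sham, day 14 and day 21 together (squares), with the first strain of each pair over the second. The intervals over all conditions leave out 0 for Agtr1a in KK/HlJ over C3H/HeJ, 0.77 to 4.34, and for Ace in C3H/HeJ over C57BL/6, 0.02 to 0.83.

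At baseline, meaning in the sham libraries, none of the 7 genes other than Agt passed the test between strains, and the 95% interval of each difference included 0. Npr1 had the lowest p next to Agtr1a. Both C3H/HeJ sham libraries lay above both C57BL/6 ones, and the level was 0.73 higher on the log2 scale in C3H/HeJ than in C57BL/6 (95% interval -0.12 to 1.59, edgeR adjusted p = 0.947). The sham difference of Ednra from C57BL/6 was -0.60 in KK/HlJ (95% interval -1.93 to 0.73) and -0.79 in C3H/HeJ (95% interval -2.12 to 0.54). Over all conditions the sign for Ednra was the other way, at 0.32 in KK/HlJ (95% interval -0.44 to 1.09) and 0.66 in C3H/HeJ (95% interval -0.11 to 1.43). Npr2 differed by 0.24 in KK/HlJ (95% interval -0.25 to 0.74) and 0.40 in C3H/HeJ (95% interval -0.09 to 0.90) against C57BL/6 over all conditions, and Ednrb by 0.07 (95% interval -1.43 to 1.58) and -0.85 (95% interval -2.37 to 0.66).

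The other genes of the 3 systems were followed as lists, and 0 of them were called by edgeR in any of the 17 comparisons. Of the ligands, Edn1, endothelin 1, had a median of 5.92 CPM, whereas Edn2 had no count in any of the 18 libraries and Edn3 none in 15. Nppa, Nppb and Nppc, the precursors of atrial, B-type and C-type natriuretic peptide, had medians of 6.42, 0.314 and 2.89 CPM. Renin (Ren1) had a median of 0.858 CPM and no count in 6 libraries. Of the other angiotensin receptors, Agtr2 had no count in 11 libraries and Mas1, the angiotensin 1-7 receptor, none in 17. Processing enzymes were at higher levels, with medians of 1825.8 CPM for the proprotein convertase Pcsk6, 370.9 CPM for the aminopeptidase Anpep and 227.6 CPM for the endothelin-converting enzyme Ece1.

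Of 22 angiotensin pathway genes 19 were tested, and their median log2 change under ISO was -0.15 at day 14 and -0.06 at day 21, against 0.02 and 0.03 over all genes. Of 7 endothelin pathway genes 5 were tested, with medians of 0.85 and 0.57, and of 17 natriuretic peptide and cGMP genes 16, with medians of -0.15 and -0.12. The endothelin list includes Kel, Mmel1 and Ece2, which had no count in 16, 9 and 3 libraries. Unadjusted p-values under 0.05 numbered 24 of 323 in the angiotensin list, 0 of 85 in the endothelin list and 10 of 272 in the natriuretic list over the 17 comparisons. Over all genes that share lay between 1.1% and 8.29% by comparison. The lowest of the list values was that of Rgs4, a regulator of G protein signalling, at day 21 in C57BL/6, where its log2 fold change was -2.25 (SE 0.574), with an unadjusted p of 0.000967 and an adjusted p of 1.0 by edgeR. DESeq2 and limma voom both called Anpep, which trims angiotensin peptides, higher in C3H/HeJ than in C57BL/6 over all conditions (adjusted p = 0.0278 with DESeq2 and 0.0227 with limma voom), and DESeq2 called Ren1 lower in KK/HlJ than in C57BL/6 (adjusted p = 0.00427). Anpep, Ren1 and Rgs4 were named after their values were seen.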

How the data were processed

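RNA of Thy1+ HE cells was sequenced as single-end reads of 50 nt from libraries described as stranded, per the labels' protocols. The deposited values are raw counts per Ensembl gene, whole numbers, with no normalization by the authors. The submitters' processing notes name FastQC, STAR 2.5.3a, edgeR and the mm10 genome. Which annotation and counting tool were used, and whether strand was counted, is not given in the sources used here.

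Of 53342 identifiers, 53237 matched GENCODE M21, which gave symbols and positions, and the 105 others hold 0.0016% of counts. CPM divide the counts by the effective library size from edgeR, and CPM per kb divides CPM by the summed length of a gene's exons. All 18 libraries entered 1 fit of edgeR 4.0.16 in R 4.3.3 (TMM scaling, default filter, robust quasi-likelihood test, a term for each of the 9 groups, 9 residual degrees of freedom). Calls required an adjusted p (Benjamini-Hochberg, 15762 genes) below 0.05. The SE and 95% interval of a log2 fold change were derived from the change and its F statistic. The floor of 3 counts reflects counting error alone, as the labels name no molecular identifiers.

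Alternatives were DESeq2 1.42.0, limma 3.58.1 voom with quality weights, RLE scaling, no filter on low counts, a mean of at least 5 CPM, a replicate block, fits of the compared groups alone, leaving out the 4 least correlated libraries, and leaving out each library in turn. The members, pathway lists, marker lists and alternatives were chosen with earlier results of these data known. All 8 members are reported whatever they showed. Of the lists, called genes were to be named, and there were none. For each member the 3 tested genes of at least 5 mean CPM with the highest Pearson correlation in log2 CPM (prior count 2) were taken as most alike. Some results on genes outside the 8 members are not reported here. Sums of markers and medians of lists carry no test.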

Additional observations from a re-analysis of the deposited data

How the results depend on the processing

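Under the 26 other settings, 3519 values of the 8 genes were recomputed. The sign turned in 192 of them, all uncalled in both fits, and 4 became called. The 3519 include the joint tests of strain differences, for which no sign was compared. For Agtr1a in KK/HlJ against C3H/HeJ over all conditions, the count of called members was 1 with DESeq2 and 1 with no filter on low counts, against 0, and ran from 0 to 1 when each library was left out in turn. Its log2 difference lay between 1.98 and 5.47. For Ednrb in KK/HlJ at day 21 the count also ran from 0 to 1 over the left-out libraries, with 1 call without replicate 2 of sham. With a replicate block, 0 members were called in each comparison, and 8 and 6 of all genes were called for ISO at day 14 and day 21 averaged over strains, against 6 and 7. Deviations of same-numbered libraries correlated between -0.144 and 0.163 over 36 pairs of groups, with a median of -0.00967. The correlation was over 0.1 in 9 pairs and under -0.1 in 3. Whether same-numbered libraries shared a day or a sort was not tested, and correlations over all genes cannot decide it. Counts over all genes also moved: ISO at day 14 called between 2 and 234 genes averaged over strains and between 0 and 477 in KK/HlJ, and ISO at day 21 averaged over strains between 2 and 78. Over conditions, KK/HlJ against C3H/HeJ called between 38 and 316, KK/HlJ against C57BL/6 between 27 and 357, and C3H/HeJ against C57BL/6 between 54 and 414. Agt could not be fitted at a mean of at least 5 CPM. The lowest libraries of Agt, Agtr1a and Ednrb hold 0, 0 and 1 counts, which limits the precision of their fold changes. The cause of these differences between settings was not tested.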

Other observations

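Several of the 8 genes varied together across the 18 libraries. The Pearson correlation of log2 CPM is given as a description, over libraries that share strains and differ in depth. It was 0.77 between Ace and Npr2, 0.70 between Ednra and Npr2, 0.62 between Ace and Ednra and 0.52 between Ednrb and Npr3. It was -0.74 between Ednra and Npr1, -0.61 between Agtr1a and Npr1 and -0.49 between Ace and Npr1. The genes most like each member, among 9788 candidates, were Prpf8 (0.9334), Adcy7 (0.9182) and Pip4k2b (0.8955) for Ace, Slc44a2 (0.91) and Prpf8 (0.8673) for Npr2, and Znfx1 (0.902), Vgll4 (0.8976) and Hcfc1 (0.8871) for Ednra. Agtr1a was most like Enc1 (0.8624), Adgrl3 (0.838) and Cdyl (0.8294), and Ednrb most like Lipo3 (0.8798), P2ry14 (0.8709) and Slc25a16 (0.8515). For Npr1 the genes were Ranbp3 (0.8797), S100a16 (0.8689) and Naxe (0.8671), and for Npr3 Tmco1 (0.776), Gpr155 (0.7439) and Nbeal1 (0.7188). Agt, with 9 of 18 libraries at 0, was most like Atf4 (0.8211), Nr4a1 (0.8029) and Vasn (0.792).

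The sham pairs of KK/HlJ and C3H/HeJ differed within themselves in the same direction for 5 of the 8 genes, a count near an even split. The share over all genes was not counted. Same-numbered deviations over all tested genes correlated by at most 0.163 between any pair of groups. Replicate 1 over replicate 2, on the log2 scale with a prior count of 2, was -1.01 in KK/HlJ and -0.93 in C3H/HeJ for Ace, -0.93 and -1.04 for Npr2, -1.30 and -1.63 for Ednra, -2.47 and -5.45 for Agtr1a, and 0.99 and 0.53 for Npr1. In C57BL/6 sham the same gaps were 0.16, 0.15, 0.81, 0.92 and -0.19. Ednrb, Npr3 and Agt differed in opposite directions in the KK/HlJ and C3H/HeJ pairs. Both replicate 1 libraries are among the 4 with the lowest correlation to the others, and each comparison with these sham pairs carries that spread. What sets these gaps was not tested.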
